A study of Homo sapiens with 18 samples.

Results

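The transcripts described here are those of 9 genes of prostaglandin synthesis, signalling and breakdown: PTGS1, PTGS2, PTGES, PTGES2, PTGES3, PTGIS, PTGER2, PTGER4 and HPGD. Their rows were found by symbol among the 28266 genes of the count table, with 1 row for each. The 9 genes were chosen with earlier results of these data known, so counts of them beside the shares of all genes are descriptive. Counts came from bulk poly(A) RNA of IMR90 cells, a human lung fibroblast line, which had been virally infected to express ER:RAS. In this fusion oncogenic RAS is joined to the ligand-binding domain of the oestrogen receptor and stays inactive until 4-hydroxytamoxifen (4OHT) is added. All 6 groups carried the fusion. Senescent groups received 100 nM 4OHT and control groups DMSO for 7 days, and each was then given IMP1088 at 300 nM, DDD86481 at 1.5 µM or DMSO for 3 days and collected on day 10. Both compounds inhibit the N-myristoyltransferases (NMTi), and their doses differ. Each group had 3 libraries. According to a supplementary legend of the study for this design, the replicates were independent experiments, all of the same cell line.

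Prostaglandins are short-lived lipid signals made from arachidonic acid, which phospholipases free from membranes. The cyclooxygenases COX-1 and COX-2 turn it into prostaglandin H2, and terminal synthases then make prostaglandin E2 (PGE2), prostacyclin and other prostanoids, which act on G protein-coupled receptors of the same or nearby cells. In fibroblasts PGE2 is known as a brake on proliferation and matrix synthesis through the receptors EP2 and EP4, which raise cyclic AMP (cAMP), and COX-2 is a well-known inducible gene of inflamed and senescent cells.

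The bases before the start sites of both cyclooxygenase genes, of PTGES and of PTGER2 are shown because these genes, PTGIS apart, had the largest changes among the 9. Windows were taken from a RefSeq promoter table (build GRCh38.p14), which matched 8 of the 9 genes, with PTGIS without an entry. Each line gives the 250 bases upstream of the annotated start, on the gene's own strand. Capitals mark letters that match, on either strand, 1 of 8 motifs. These are the TATA box with the letters TATAAA, the CAAT box, searched as CCAAT in either direction, and the GC box, searched as GGGCGG in either direction. The half-site of the cAMP response element was searched as TGACG and the C/EBP-type motif as TTNCGNAA. The composite element known for ATF4 and CHOP was searched as TGATGNAA, the EGR1-type motif as GCGTGGGCG and the AP-1 motif as TGANTCA.
PTGS2, chr1:186680424-186680673, minus strand: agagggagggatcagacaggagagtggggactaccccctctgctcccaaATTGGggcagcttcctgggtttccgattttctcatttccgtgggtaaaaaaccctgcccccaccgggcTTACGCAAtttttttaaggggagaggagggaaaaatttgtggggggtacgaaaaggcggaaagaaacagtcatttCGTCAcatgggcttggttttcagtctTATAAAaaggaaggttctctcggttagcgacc
PTGS1, first of 2 windows, chr9:122370283-122370532, plus strand: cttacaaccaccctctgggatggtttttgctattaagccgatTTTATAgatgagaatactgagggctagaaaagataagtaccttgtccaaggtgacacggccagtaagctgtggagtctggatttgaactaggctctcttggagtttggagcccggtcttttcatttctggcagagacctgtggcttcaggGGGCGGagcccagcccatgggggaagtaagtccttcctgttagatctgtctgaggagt
PTGES, chr9:129753043-129753292, minus strand: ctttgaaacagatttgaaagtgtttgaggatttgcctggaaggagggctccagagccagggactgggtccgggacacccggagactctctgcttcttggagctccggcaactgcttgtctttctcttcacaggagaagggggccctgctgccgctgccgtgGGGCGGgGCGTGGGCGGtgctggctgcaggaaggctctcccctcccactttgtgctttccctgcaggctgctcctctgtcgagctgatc
PTGER2, chr14:52314062-52314311, plus strand: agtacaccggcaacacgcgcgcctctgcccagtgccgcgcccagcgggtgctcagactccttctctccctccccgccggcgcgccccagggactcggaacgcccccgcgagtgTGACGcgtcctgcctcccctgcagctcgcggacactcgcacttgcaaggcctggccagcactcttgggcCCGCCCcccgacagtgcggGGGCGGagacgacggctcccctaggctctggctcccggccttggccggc

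The PTGS2 window held a TATA box 32 to 27 bases before the start, a cAMP half-site at 58 to 54, a C/EBP-type motif at 133 to 126 and a CAAT box at 201 to 197. The PTGS1 window held a GC box at 58 to 53 and, on the opposite strand, a TATA box at 208 to 203. The PTGES window held GC boxes at 89 to 84 and 78 to 73, and an EGR1-type motif at 82 to 74 that overlaps the second of them. PTGER2 had 2 GC boxes, at 68 to 63 and 49 to 44, and a cAMP half-site at 137 to 133. Among all 35116 windows of the table, 10.7% held the TATA box, 32% the CAAT box, 42.6% the GC box, 21.2% the cAMP half-site, 2.18% the C/EBP-type motif and 0.72% the EGR1-type motif. The ATF4-CHOP composite (3.14% of windows) and the AP-1 motif (6.57%) were in none of the 12 windows of the 8 genes. These matches describe letters only and are not evidence that a factor was bound.

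Expression is given as CPM, counts scaled to a common library size with TMM factors, and changes as log2 fold change ± SE. Each adjusted p is from edgeR and its quasi-likelihood test. The threshold was 0.05. Library totals ran from 16143716 to 23189950 counts, and a count of 0 allows up to 3 counts, which came to between 0.121 and 0.187 CPM. This floor covers counting error only. Of the 9 genes, 8 passed the filter on low counts, and HPGD did not. Control DMSO replicate 3 stood apart from its group: its chi-square per gene was 98.8 against replicate 1 and 50.003 against replicate 2, whereas other pairs of replicates had values from 4.89 to 25.5. Calls that changed without it are given beside the result. Fibroblast markers (12 of 12) were over the floor in every group, with summed levels of 29007 to 42207 CPM in control libraries, 22183 to 23074 in senescent DMSO libraries and 15451 to 16816 in senescent NMTi libraries. Between control and senescent DMSO cells 10 of the 12 were called lower (36% of all genes) and 2 higher (32.5%). Means fell from 3042 to 7.73 CPM for DCN, from 1400 to 12.3 for FBLN1 and from 314 to 8.39 for LUM. That of VIM rose from 5035 to 11681 CPM. Of 8 epithelial markers KRT5, SFTPB and SFTPC were at 0 in every library, and of 9 leukocyte markers CD3E was at 0 in every library. Summed epithelial markers were 28.4 to 39.8 CPM in control DMSO, 6.95 to 8.18 in control NMTi and 1.26 to 3.22 in senescent libraries. Mean KRT19 was 31.3 CPM in control DMSO cells, 6.60 and 6.19 in control cells with IMP1088 and DDD86481, and 0.71 in senescent DMSO cells. Summed endothelial markers were 37.3 to 58.9 CPM in control and 30.9 to 67.4 in senescent libraries. Within this sum the markers moved in opposite directions between control and senescent DMSO cells: of 6 endothelial markers TEK fell, from a mean of 42.0 to 11.2 CPM, and the other 5 rose. All 6 passed, where 32.5% of all genes tested were higher and 36% lower. CLDN5 went from 0.10 to 19.5 CPM, EGFL7 from 4.42 to 21.6, VWF from 1.12 to 5.82 and PECAM1 from 0.21 to 2.77, and CDH5, whose control DMSO libraries did not pass the floor, reached 1.77. With NMTi in senescent cells 0 of the 6 were higher, and 4 were lower with IMP1088 and 3 with DDD86481. Summed leukocyte markers were 15.3 to 24.4 CPM in control and 91.9 to 165 in senescent libraries, with CD68 among those called higher. The part of these markers in the results was not tested.

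**Figure D1:**
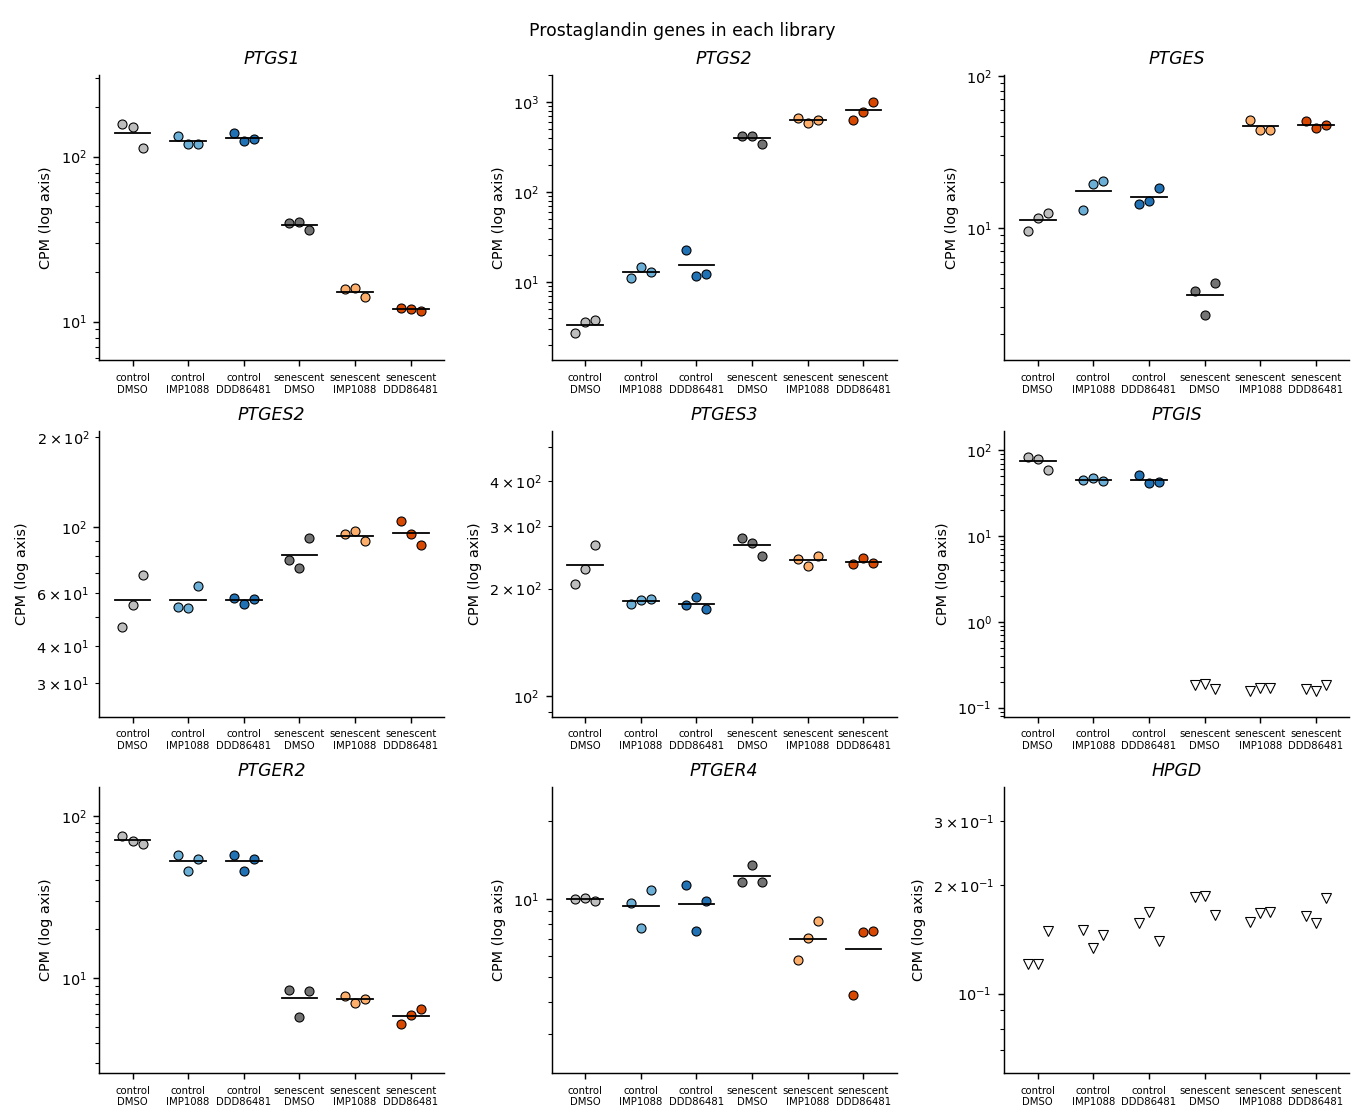
CPM of the 9 genes (log axis, 1 panel per gene) in each of the 18 libraries, by group. Circles are libraries and bars are group means. Open triangles stand at the library's floor of 3 counts and mark libraries at or under it, as for PTGIS in all 9 senescent libraries and for HPGD in all 18.

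The first question was how cells undergoing oncogene-induced senescence differed from control cells without NMTi. PTGS2 rose 120-fold while PTGS1, PTGES and PTGER2 fell and PTGIS dropped to the floor. Of the 8 genes tested, 6 passed the threshold, 2 higher and 4 lower, where 68.5% of all genes tested passed. Their median log2 fold change was -0.72, against -0.051 over all genes.

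PTGS2 encodes COX-2 (chromosome 1, 186640923 to 186650054, GRCh37, as for all gene positions below). In control DMSO libraries PTGS2 had 2.66, 3.58 and 3.73 CPM. In senescent DMSO libraries PTGS2 had 423, 426 and 346 CPM. The lowest senescent library thus lay far above the highest control library. The log2 fold change was 6.91 ± 0.26 (adjusted p = 4.55e-15), a 120-fold rise. An antisense gene, PACERR, shares 3.99% of the exonic bases of PTGS2.

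PTGS1 encodes COX-1, the cyclooxygenase of resting cells (chromosome 9, 125132809 to 125157982). PTGS1 had 157, 150 and 112 CPM in control DMSO libraries, the last value being that of replicate 3. In senescent DMSO libraries PTGS1 had 39.6, 40.0 and 36.2 CPM, below every control library. PTGS1 fell by 1.86 ± 0.11 on the log2 scale (adjusted p = 5.65e-12), and fell by 1.99 without control DMSO replicate 3. Per kilobase of exon, PTGS2 was at 0.0261 ± 0.0087 times the level of PTGS1 in control DMSO cells (SD, n = 3) and at 10.9 ± 0.67 times in senescent DMSO cells, so the more abundant cyclooxygenase transcript switched from PTGS1 to PTGS2. Among all genes tested that had a length, PTGS2 per kilobase moved from percentile 18.8 to percentile 95.8, and PTGS1 from 87.9 to 61.4.

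PTGES encodes microsomal prostaglandin E synthase-1, the inducible enzyme that often works with COX-2 (chromosome 9, 132500610 to 132515321). PTGES had 9.47, 11.6 and 12.5 CPM in control DMSO libraries. It had 3.83, 2.68 and 4.34 CPM in senescent DMSO libraries, the lowest of the 6 groups. PTGES fell by 1.62 ± 0.19 on the log2 scale (adjusted p = 1.92e-07). Its direction was thus opposite to that of PTGS2.

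PTGES2 encodes a membrane-associated PGE2 synthase (chromosome 9, 130882972 to 130890741), and PTGES3 encodes p23, a co-chaperone of HSP90 that also has PGE2 synthase activity (chromosome 12, 57057125 to 57082192). PTGES2 had 46.4, 54.9 and 69.1 CPM in control DMSO libraries. In senescent DMSO libraries PTGES2 had 77.7, 72.6 and 91.7 CPM, each above the control libraries. PTGES2 rose by 0.51 ± 0.12 (adjusted p = 0.00104), or by 0.35 (adjusted p = 0.0172) under upper quartile scaling, which shifted the median of all genes by -0.15 in this comparison. PTGES3 had 207, 227 and 266 CPM in control DMSO libraries and 277, 269 and 248 CPM in senescent DMSO libraries, and the groups overlapped. Its difference of 0.18 ± 0.087 did not pass (adjusted p = 0.0672), but it passed with DESeq2 (0.22, adjusted p = 0.0167), without control DMSO replicate 3 (0.29, adjusted p = 0.00226) and without senescent DMSO replicate 3 (0.23, adjusted p = 0.0424).

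PTGIS encodes prostacyclin synthase (chromosome 20, 48120411 to 48184674). PTGIS had 84.6, 79.4 and 58.3 CPM in control DMSO libraries, or 2098, 1973 and 1171 counts. In senescent DMSO libraries it had 0, 1 and 0 counts, and it had 0 counts in all 6 senescent NMTi libraries. Against the floor of the senescent DMSO group it was at least 414-fold lower. This is the largest difference among the 9 genes in any comparison. The 2 genes most like PTGIS over the 18 libraries were DCN (Pearson's r = 0.999 on log2 CPM), a fibroblast marker, and FMO2 (0.998). In all, 1039 genes tested had r over 0.95 with PTGIS.

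PTGER2 and PTGER4 encode the PGE2 receptors EP2 and EP4 (chromosome 14, 52781023 to 52795316, and chromosome 5, 40680017 to 40693837). PTGER2 had 75.3, 70.4 and 66.98 CPM in control DMSO libraries. It had 8.52, 5.79 and 8.41 CPM in senescent DMSO libraries, below every control library of any treatment. PTGER2 fell by 3.22 ± 0.14 on the log2 scale (adjusted p = 4.19e-14). PTGER4 had 10.00, 10.1 and 9.80 CPM in control DMSO libraries and 11.6, 13.6 and 11.6 CPM in senescent DMSO libraries. These groups did not overlap, but the difference of 0.30 ± 0.19 did not pass (adjusted p = 0.165). Per kilobase, PTGER2 was at 10.2 ± 0.54 times PTGER4 in control DMSO cells and at 0.902 ± 0.25 times in senescent DMSO cells. In these bulk samples, fewer cells of a type and less RNA per cell cannot be told apart.

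HPGD encodes the dehydrogenase that begins prostaglandin breakdown (chromosome 4, 175411326 to 175444305). Its counts were between 0 and 3 in all 18 libraries, and no fold is given. At this depth HPGD was not detectable over the floor in control or senescent cells, with or without NMTi.

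**Figure D2:**
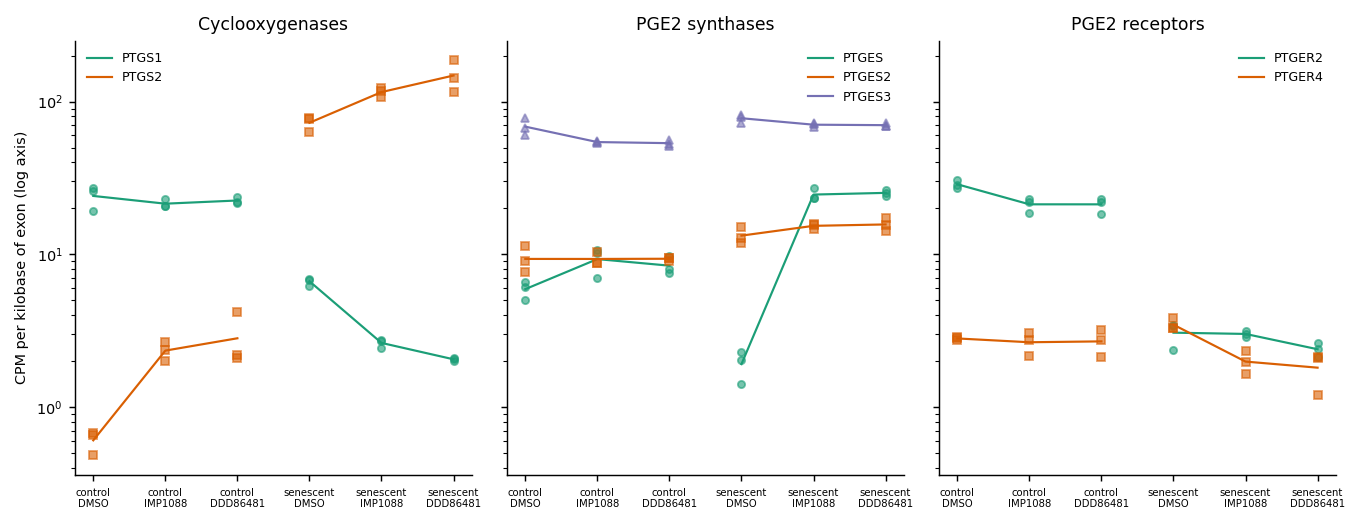
CPM per kilobase of exon (log axis) of the cyclooxygenase, PGE2 synthase and PGE2 receptor genes in the 6 groups. Points are libraries and lines join group means within control and within senescent cells. PTGS1 lies above PTGS2 in control cells and below it in senescent cells, and PTGES lies below PTGES2 in senescent DMSO cells and above it in senescent cells with either inhibitor. Without division by exonic length, PTGES stays below PTGES2 in CPM in all 6 groups.

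The next question was what NMTi changed in senescent cells. PTGES rose from its lowest level to its highest, PTGS2 rose further, and PTGS1 and PTGER4 fell. Of the 8 genes tested, 4 passed with IMP1088, where 44.4% of all genes passed, and 4 with DDD86481, where 43.2% passed. With each inhibitor 2 were higher and 2 lower. Medians of the tested genes were -0.085 and -0.26, against -0.043 and -0.037 over all genes. Both comparisons use the same senescent DMSO libraries.

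PTGES in senescent cells had 51.1, 44.4 and 44.2 CPM with IMP1088, and 50.2, 45.5 and 47.6 CPM with DDD86481, against 2.68 to 4.34 CPM with DMSO. Every library with an inhibitor was thus above every library of the other 4 groups. The log2 fold change was 3.68 ± 0.18 with IMP1088 (adjusted p = 1.9e-11) and 3.71 ± 0.18 with DDD86481 (adjusted p = 1.59e-11), or 12.8-fold and 13.1-fold. PTGES per kilobase went from 0.143 ± 0.021 times PTGES2 in DMSO to 1.60 ± 0.13 times with IMP1088 and 1.62 ± 0.13 times with DDD86481. These ratios depend on the length used, that of all annotated exons together, 1891 bases for PTGES and 6084 for PTGES2. In CPM, PTGES stayed below PTGES2, at 46.6 against 93.5 with IMP1088 and 47.8 against 95.5 with DDD86481. The PTGES window shown above has GC boxes and no TATA box, whereas that of PTGS2 has a TATA box and no GC box. The windows shown for PTGS1 and PTGER2 also have GC boxes, and a part of these letters in the changes was not tested.

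PTGS2 in senescent cells had 669, 588 and 641 CPM with IMP1088 and 632, 786 and 1019 CPM with DDD86481. All 6 libraries were above the senescent DMSO libraries, which reached 426 CPM. The rises were 0.67 ± 0.19 (adjusted p = 0.00708) and 1.03 ± 0.19 (adjusted p = 0.000202). PTGS1 had 15.7, 15.9 and 14.0 CPM with IMP1088 and 12.1, 12.0 and 11.7 CPM with DDD86481, all below the lowest senescent DMSO library at 36.2 CPM. On the log2 scale PTGS1 fell by 1.34 ± 0.11 (adjusted p = 1.8e-08) and fell by 1.70 ± 0.12 (adjusted p = 1.53e-09). The ratio of PTGS2 to PTGS1 per kilobase was 44.03 ± 4.71 with IMP1088 and 72.3 ± 18.7 with DDD86481.

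PTGER4 had 5.84, 7.04 and 8.24 CPM with IMP1088 and 4.26, 7.47 and 7.54 CPM with DDD86481, each below the lowest senescent DMSO library. On the log2 scale PTGER4 fell by 0.80 ± 0.20 (adjusted p = 0.00221) and fell by 0.94 ± 0.20 (adjusted p = 0.000672). PTGER2, low in all senescent cells, had 7.73, 7.10 and 7.46 CPM with IMP1088 and 5.24, 5.96 and 6.50 CPM with DDD86481, and each group overlapped that with DMSO. Its differences were -0.030 ± 0.15 (adjusted p = 0.894) and -0.36 ± 0.15 (adjusted p = 0.0598). The latter passed under upper quartile scaling (-0.38, adjusted p = 0.0425), without senescent DMSO replicate 2 (-0.52, adjusted p = 0.0084) and without senescent DDD86481 replicate 3 (-0.44, adjusted p = 0.0492).

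PTGES2 in senescent cells had 89.6 to 96.5 CPM with IMP1088 and 86.9 to 105 CPM with DDD86481, with differences of 0.21 ± 0.12 (adjusted p = 0.167) and 0.24 ± 0.12 (adjusted p = 0.115). In fits of only the groups compared it passed, with 0.25 (adjusted p = 0.00896) and 0.28 (adjusted p = 0.046), and with DDD86481 it also passed without senescent DMSO replicate 3 (0.35, adjusted p = 0.0474). PTGES3 had 232 to 247 CPM and 235 to 245 CPM, and neither of its differences passed, at -0.14 ± 0.087 (adjusted p = 0.201) and -0.15 ± 0.087 (adjusted p = 0.171). PTGIS was at or under the floor with and without NMTi, so no fold is given.

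**Figure D3:**
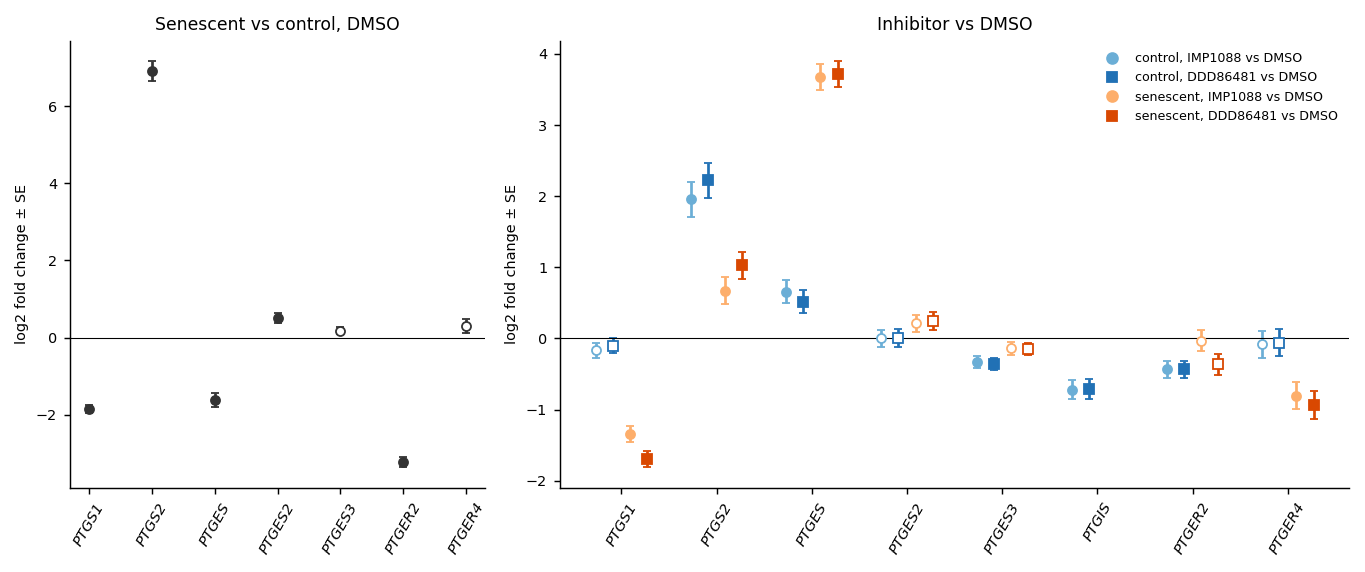
Log2 fold change ± SE from edgeR for senescent against control cells with DMSO (left, 7 genes) and for each inhibitor against DMSO (right, 8 genes). Filled symbols passed the adjusted threshold of 0.05 and open symbols did not. PTGIS is left out wherever senescent libraries enter. PTGES stands at 3.68 and 3.71 in senescent cells and at 0.66 and 0.51 in control cells.

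The same inhibitors were then compared with DMSO in control cells. PTGS2 and PTGES rose, and PTGIS, PTGER2 and PTGES3 fell by less than 2-fold. Of the 8 genes tested, 5 passed with IMP1088, where 33.7% of all genes passed, and 5 with DDD86481, where 36.6% passed. With each inhibitor 2 were higher and 3 lower. Medians were -0.13 and -0.081, against -0.0011 and 0 over all genes. Both comparisons share the control DMSO libraries.

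PTGS2 in control cells had 10.99, 14.6 and 13.0 CPM with IMP1088 and 22.9, 11.5 and 12.1 CPM with DDD86481, against 2.66 to 3.73 CPM with DMSO. No library with an inhibitor overlapped the DMSO group. The rises were 1.96 ± 0.25 (adjusted p = 5.63e-06) and 2.22 ± 0.24 (adjusted p = 1.14e-06), yet the highest of these libraries stayed far below the lowest senescent library. PTGS1 had 134, 119 and 119 CPM with IMP1088 and 138, 125 and 128 CPM with DDD86481, within the range of the DMSO libraries. Neither difference passed, at -0.17 ± 0.10 (adjusted p = 0.222) and -0.099 ± 0.10 (adjusted p = 0.48), but without control DMSO replicate 3 they were -0.30 (adjusted p = 0.008) and -0.24 (adjusted p = 0.0373).

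PTGES in control cells had 13.1, 19.4 and 20.3 CPM with IMP1088 and 14.3, 15.1 and 18.4 CPM with DDD86481, all above the highest DMSO library at 12.5 CPM. The rises were 0.66 ± 0.16 (adjusted p = 0.00367) and 0.51 ± 0.16 (adjusted p = 0.0175). The call with DDD86481 was lost without control DDD86481 replicate 3 (0.40, adjusted p = 0.0929) and without control DMSO replicate 1 (0.41, adjusted p = 0.0531). PTGES3 had 181 to 187 CPM with IMP1088 and 175 to 189 CPM with DDD86481, below every DMSO library, with log2 fold changes of -0.34 ± 0.087 (adjusted p = 0.00551) and -0.36 ± 0.087 (adjusted p = 0.00319). Both calls were lost in fits of only the groups compared (adjusted p = 0.0769 and 0.0636). PTGES2 had 53.4 to 63.2 CPM and 55.3 to 58.02 CPM, inside the DMSO range, with differences of 0.00085 ± 0.12 (adjusted p = 0.999) and 0.0055 ± 0.12 (adjusted p = 0.981).

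PTGIS in control cells had 44.7, 46.99 and 43.5 CPM with IMP1088 and 50.9, 42.1 and 42.5 CPM with DDD86481, all below the DMSO libraries. On the log2 scale PTGIS fell by 0.72 ± 0.14 (adjusted p = 0.000829) and fell by 0.71 ± 0.14 (adjusted p = 0.000835). PTGER2 had 57.04, 45.96 and 54.2 CPM with IMP1088 and 57.1, 45.5 and 54.6 CPM with DDD86481, also below the DMSO libraries. PTGER2 fell by 0.44 ± 0.12 with both (adjusted p = 0.00897 and 0.00851), and the call with IMP1088 was lost without control IMP1088 replicate 2 (-0.35, adjusted p = 0.0579). PTGER4 had 7.70 to 10.9 CPM and 7.51 to 11.3 CPM, around the DMSO libraries, and did not pass (-0.085 ± 0.19, adjusted p = 0.759 and -0.062 ± 0.19, adjusted p = 0.827).

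An interaction term then tested whether the change with an inhibitor differed between senescent and control cells. PTGES rose more, PTGS1 fell more, and PTGS2 rose less in senescent cells on the log2 scale. Of the 8 genes tested, 3 passed for IMP1088, where 26.2% of all genes passed, and 4 for DDD86481, where 30.3% passed. For PTGES the senescent change exceeded the control change by 3.02 ± 0.24 (adjusted p = 4.39e-08) with IMP1088 and 3.20 ± 0.24 (adjusted p = 3.01e-08) with DDD86481. For PTGS1 it was -1.17 ± 0.15 (adjusted p = 2.19e-05) and -1.60 ± 0.16 (adjusted p = 5.91e-07). For PTGS2 it was -1.29 ± 0.31 (adjusted p = 0.00498) and -1.196 ± 0.31 (adjusted p = 0.00729), from a base that was 120-fold higher. PTGER4 passed for DDD86481 (-0.87 ± 0.27, adjusted p = 0.021) and not for IMP1088 (-0.72 ± 0.27, adjusted p = 0.0557). The first call was lost without control DDD86481 replicate 1 (adjusted p = 0.0754), without control DDD86481 replicate 3 (0.0515), without senescent DDD86481 replicate 1 (0.0574) and without senescent DMSO replicate 2 (0.0544). The second passed with DESeq2 (adjusted p = 0.0332), without control IMP1088 replicate 2 (0.0434) and without senescent IMP1088 replicate 3 (0.0436). PTGES2, PTGES3 and PTGER2 passed for neither inhibitor, but without control DMSO replicate 1 PTGES3 passed for IMP1088 (0.30, adjusted p = 0.0471) and DDD86481 (0.32, adjusted p = 0.0323), and PTGES2 for DDD86481 (0.40, adjusted p = 0.04).

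IMP1088 and DDD86481 were used at different doses, so their values stand side by side here as measured under unequal conditions. The fit that set one against the other called 0 of 14341 genes (0%) with edgeR in senescent cells and 0 in control cells, and DESeq2 also called 0. At an unadjusted p under 0.05 there were 570 and 141 genes. Among the 9 genes, PTGS1 in senescent cells was higher with IMP1088 than with DDD86481 by 0.36 (95% interval 0.11 to 0.61), with an adjusted p of 1. For PTGES the difference was -0.037 (-0.35 to 0.28) in senescent cells and 0.14 (-0.19 to 0.47) in control cells. For PTGS2 it was -0.36 (-0.75 to 0.034) and -0.27 (-0.72 to 0.18). These intervals leave room for differences of the size of some NMTi changes given above and do not show that the compounds acted alike.

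The order of the group means summarises these patterns. PTGS2 was highest in senescent DDD86481 cells (812 ± 195 CPM), then in senescent IMP1088 cells (633 ± 40.9), whose libraries overlapped, and next in senescent DMSO cells (399 ± 45.3). PTGES was highest in both senescent NMTi groups (47.8 ± 2.34 and 46.6 ± 3.92 CPM), which overlapped, followed by the control NMTi groups, control DMSO cells and senescent DMSO cells, and these last 2 did not overlap. PTGS1 had 3 overlapping control groups at the top and then fell stepwise, without overlap, through the senescent DMSO, IMP1088 and DDD86481 groups. PTGER4 was highest in senescent DMSO cells (12.3 ± 1.12 CPM), and every other neighbouring pair of groups overlapped.

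Genes whose log2 CPM followed each of these most closely over the 18 libraries are given as a description. They share libraries and the split between control and senescent cells. For PTGS2 they were SLC16A6 (Pearson's r = 0.994) and MSMO1 (0.992), with 567 genes over 0.95. For PTGS1 they were EPB41L2 and CADM1 (0.995 and 0.995, 753 genes over 0.95), and for PTGER2 ISLR and DNAJC22 (0.994 and 0.993, 838 genes). The pattern of PTGES was shared by fewer genes: TRMT61A (0.974) and CXXC1 (0.973) led, and 14 genes were over 0.95. For PTGER4 no gene was over 0.95, and SEMA3A (0.888) and SYT1 (0.878) came closest. PTGES2 was most like MYDGF (0.984) and PSMD9 (0.980), and PTGES3 most like PRDX3 (0.981) and RNF11 (0.977).

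The rest of the pathway was read from 6 lists of genes, whose counts stand against the shares of all genes tested. In senescence 32.5% of all genes were higher and 36% lower. IMP1088 raised 20.6% and lowered 23.9% of them in senescent cells, and DDD86481 raised 20.1% and lowered 23.1%. The shares in control cells were 16.3% raised and 17.4% lowered by IMP1088, against 17.8% raised and 18.7% lowered by DDD86481. With 2 to 9 genes tested in a list, none of the counts below was tested against these shares. The lists were also chosen with earlier results of these data known. Among 10 genes that release arachidonate or its precursors, 5 were tested, and 4 were higher and 1 lower in senescent than in control DMSO cells (32.5% and 36% of all genes), with a median of 0.84 against -0.051 over all genes. PLA2G4C, a cytosolic phospholipase A2, went from 7.30 to 7.93 CPM in control libraries to 31.7 to 34.2 CPM in senescent libraries, a rise of 2.15 ± 0.12 (adjusted p = 4.11e-12). MGLL, the monoacylglycerol lipase, rose by 1.41 (adjusted p = 3.87e-11) and PLA2G15 by 0.84 (adjusted p = 4.91e-08). In senescent cells IMP1088 left 0 higher and 2 lower, and DDD86481 left 1 higher and 3 lower. PLA2G4C fell by 0.80 (adjusted p = 1.44e-05) and fell by 0.82 (adjusted p = 1.28e-05) there. In control cells IMP1088 left 1 higher and 2 lower and DDD86481 1 higher and 1 lower, the higher one being PLA2G4A, the main cytosolic phospholipase A2, with 0.86 (adjusted p = 0.000139) and 0.73 (adjusted p = 0.000693). MGLL had the lowest adjusted p there and fell by 0.97 (adjusted p = 2.11e-07) and fell by 0.91 (adjusted p = 5.28e-07), from 145 to 160 CPM with DMSO to 74.1 to 82.5 CPM and 75.5 to 90.1 CPM.

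Of 7 other prostanoid synthases and reductases 6 were tested, with 4 higher and 2 lower in senescence (32.5% and 36% of all genes) and a median of 0.45. AKR1B1, an aldose reductase that can make prostaglandin F2α, rose by 1.67 (adjusted p = 2.59e-10). PTGDS, the lipocalin-type prostaglandin D synthase, fell by 1.86 (adjusted p = 1.75e-09), and AKR1C3, another prostaglandin F synthase, fell by 3.57 (adjusted p = 1.34e-07). AKR1C3 fell from 2.90 to 4.83 CPM to 0.187 to 0.432 CPM, or 3 to 7 counts, close to the floor. With NMTi in senescent cells 1 was higher and 1 lower (IMP1088), and 2 were higher and 1 lower (DDD86481). PTGDS rose with both inhibitors in both states. In senescent cells it went from 12.6 to 18.9 CPM with DMSO to 44.4 to 58.4 CPM with IMP1088 and 43.3 to 53.8 CPM with DDD86481, rises of 1.70 (adjusted p = 5.14e-08) and 1.63 (adjusted p = 1.03e-07). In control cells the rises were 1.79 (adjusted p = 2.76e-08) and 1.62 (adjusted p = 9.85e-08), and 2 other genes of the list fell with each inhibitor, PRXL2B and CBR1. TBXAS1, the thromboxane synthase, fell by 0.99 (adjusted p = 1.68e-07) and fell by 1.16 (adjusted p = 2.91e-08) in senescent cells.

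Of 9 genes of transport and breakdown 7 were tested, and 4 were higher and 2 lower in senescence (32.5% and 36% of all genes), with a median of 0.51. SLCO4A1 and SLCO2A1, the latter a prostaglandin uptake carrier, rose by 4.45 (adjusted p = 1.81e-12) and 3.36 (adjusted p = 9.43e-09). SLCO2A1 rose from 0.199 to 0.645 CPM, or 4 to 16 counts, near the floor, to 3.89 to 4.12 CPM. SLCO3A1 fell by 1.24 (adjusted p = 5.82e-08). With NMTi in senescent cells 0 were higher, and 3 were lower with IMP1088 and 2 with DDD86481, among them ABCC4, a transporter that exports PGE2, which fell by 0.89 (adjusted p = 6.89e-05) and fell by 0.91 (adjusted p = 5.45e-05). In control cells IMP1088 left 0 higher and 2 lower and DDD86481 0 higher and 1 lower. PTGR1, a prostaglandin reductase, fell by 0.78 (adjusted p = 1.82e-05) and fell by 0.76 (adjusted p = 2.58e-05) there.

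Of 7 other prostanoid receptors 5 were tested. In senescence 2 were higher, PTGDR2 and PTGFR, and 1 lower, PTGER1, with a median of 0.11. With NMTi in senescent cells 4 of the 5 were lower (23.9% and 23.1% of all genes) and 0 higher (20.6% and 20.1%) with each inhibitor, with medians of -0.78 and -0.77 against -0.043 and -0.037 over all genes. PTGIR, the prostacyclin receptor, fell by 0.74 (adjusted p = 0.0013) and fell by 0.77 (adjusted p = 0.000963). PTGER1, the EP1 receptor, fell by 0.93 (adjusted p = 0.00472) and fell by 0.81 (adjusted p = 0.0117). PTGDR2, a prostaglandin D2 receptor, was at 0.498 to 1.70 CPM with DMSO and at or under the floor in all libraries with DDD86481, at least 6.2-fold lower. In control cells 2 were lower and 0 higher with each inhibitor. TBXA2R, the thromboxane receptor, fell by 1.35 (adjusted p = 0.000174) and fell by 1.30 (adjusted p = 0.000257) there.

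Of 10 genes listed for the cAMP and CREB response, downstream of EP2 and EP4, 9 were tested. In senescence 6 were higher and 2 lower (32.5% and 36% of all genes), with a median of 1.12. NR4A3, an early-response nuclear receptor, rose by 3.98 (adjusted p = 6.16e-12) and PDE4B, a cAMP phosphodiesterase, by 3.06 (adjusted p = 6.93e-12), while NR4A2 fell by 2.73 (adjusted p = 4.48e-09). With NMTi in senescent cells 4 were higher (20.6% and 20.1% of all genes) and 2 lower (23.9% and 23.1%) with each inhibitor. DUSP1, a MAP kinase phosphatase, rose by 1.28 (adjusted p = 2.97e-06) and 1.319 (adjusted p = 2.13e-06), as did NR4A2, by 1.72 (adjusted p = 1.65e-05) and 1.75 (adjusted p = 1.37e-05). NR4A3 fell by 1.201 (adjusted p = 3.65e-05) and fell by 0.96 (adjusted p = 0.000339) in senescent cells. In control cells NR4A3 rose by 2.08 (adjusted p = 3.9e-06) and 2.18 (adjusted p = 2.33e-06). In control cells 5 and 7 of the 9 were higher (16.3% and 17.8% of all genes) and 0 lower (17.4% and 18.7%). Many signals besides PGE2 act on these genes.

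Of 7 genes of the lipoxygenase branch, which makes leukotrienes from the same arachidonate, only ALOX5AP and LTA4H were tested. ALOX5AP rose by 3.82 in senescence (adjusted p = 4.18e-07), from 0.040 to 0.20 CPM in control DMSO libraries to 1.68 to 2.22 CPM. The control DMSO level was 1 to 5 counts, around the floor of 3, so the size of this rise is uncertain. ALOX5AP fell by 0.97 with DDD86481 in senescent cells (adjusted p = 0.0296), while its difference with IMP1088 there, -0.76, did not pass (adjusted p = 0.0741). LTA4H passed in none of the 5 comparisons, and neither gene passed in control cells.

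**Figure D4:**
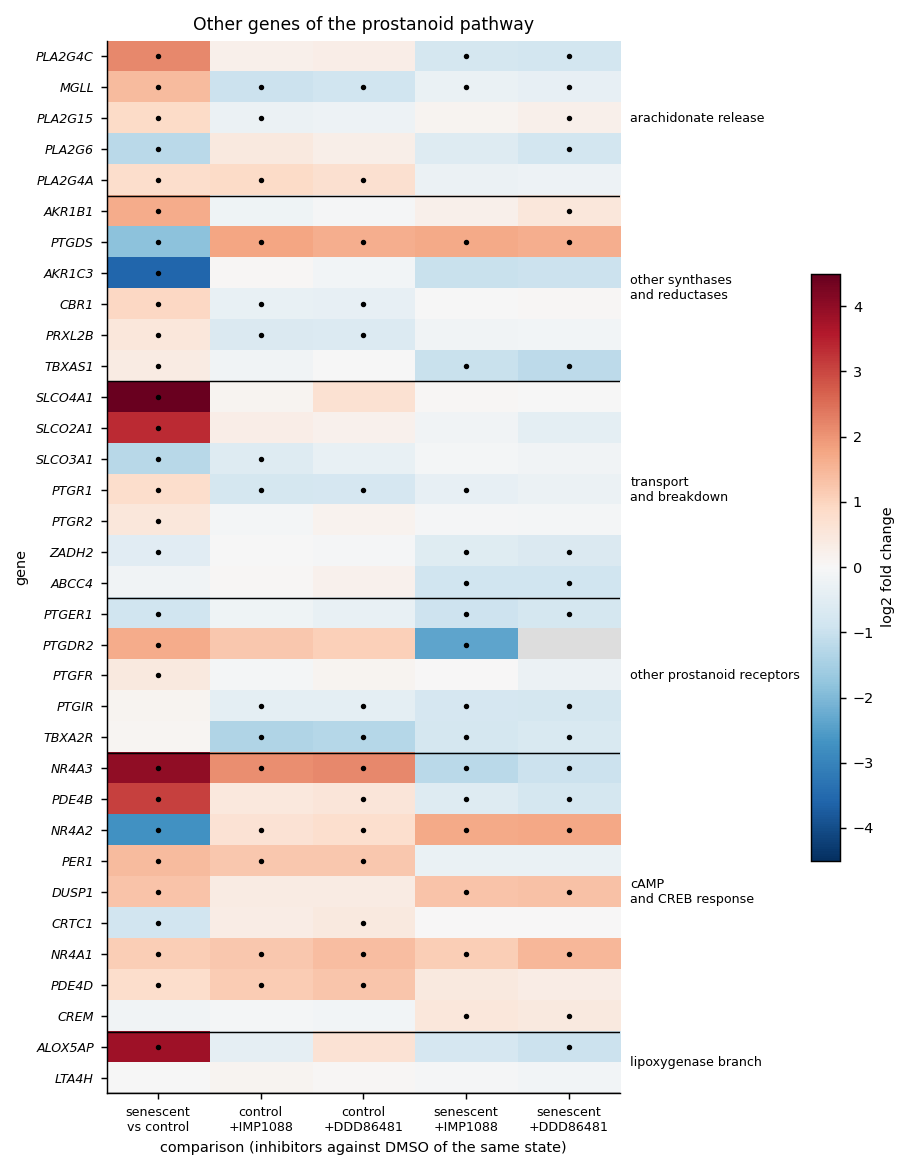
Log2 fold changes of the 34 tested genes of the 6 lists (rows) in the 5 comparisons (columns), on a colour scale from blue (lower) to red (higher). Dots mark genes that passed the adjusted threshold of 0.05, and the grey cell is PTGDR2 with DDD86481 in senescent cells, given only as a bound. ALOX5AP with IMP1088 in control cells was also at or under the floor in all libraries, but its cell is coloured by its fold. PTGDS is red in all 4 inhibitor columns, and 4 of the 5 other receptors are lower in senescent cells with NMTi.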

How the data were processed

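Bulk poly(A) RNA of IMR90 ER:RAS cells was measured in 18 libraries, 3 for each of 6 groups. The file deposited by the authors holds unnormalized read counts for 28266 gene symbols, and library totals ran from 16143716 to 23189950. The study's methods describe directional single-end libraries aligned to hg19 with TopHat, whereas the submitters' processing notes name DRAGEN, STAR 2.7.8a, DESeq2 1.32.0 and hg38. Which of these made the table, and the strand setting and annotation of counting, are not given in the sources used here, so counts of overlapping or antisense genes are uncertain. Columns headed PCLX001 were read as DDD86481, since the labels give both names.

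Groups came from the labels. Counts were filtered with filterByExpr (14341 genes kept, with 99.962% of counts), scaled by TMM and tested with edgeR 4.0.16 (R 4.3.3) in 1 quasi-likelihood fit over all 6 groups. Benjamini-Hochberg adjustment was made within each comparison, and the SE was obtained from F. CPM used TMM-scaled library sizes, and log2 CPM a prior count of 2. A group whose libraries were all at or under 3 counts was given as a bound against the mean of its library floors. Reads carry no molecular identifiers. Between replicates the chi-square per gene was 4.89 or more, and none was taken for a duplicate. Positions, exonic lengths and overlaps came from GENCODE on GRCh37, which gave a length for 96.4% of the genes tested. The length of a gene was that of all its annotated exons together, whichever transcripts were expressed. Promoter windows came from RefSeq on GRCh38.p14.

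All 9 genes were named whatever their values. For each list the genes named were up to 3 with the lowest adjusted p in the comparison described. NR4A3 with DDD86481 in senescent cells falls outside that rule and was chosen after its values were seen. The 9 genes and the lists were chosen with earlier results of these data known. To see whether replicate numbers pair libraries, each library's deviation from its group mean was correlated with that of the library of the same number. The values were 0.394, 0.123 and 0.231 for control IMP1088 and control DMSO, 0.117, 0.126 and 0.119 for senescent IMP1088 and senescent DDD86481, and 0.101, 0.27 and 0.129 for control IMP1088 and control DDD86481. Among the pairs of groups compared directly, all were above 0.1 for only these, and no label names a shared batch. Other pairs of groups, and libraries of unlike numbers, were not checked. No pairing entered the fit reported here, which held group means only. A replicate block over all libraries was 1 of the alternatives. The test was checked on simulated counts in which a small part of the genes changed in a single group and no library stood apart. That check does not cover the many changed genes and the outlying library of these data. Alternatives were DESeq2 1.42.0, upper quartile and RLE scaling, no filter on low counts, fits of only the groups compared, a replicate block and leaving out each library.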

Additional observations from a re-analysis of the deposited data

Results flagged for a closer look

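Changes with an inhibitor that differed between senescent and control cells, by the interaction term of edgeR's quasi-likelihood fit, are listed here. For PTGES the change in senescent cells exceeded that in control cells by 3.02 with IMP1088 and by 3.20 with DDD86481 on the log2 scale. For PTGS1 the values were -1.17 and -1.60, and for PTGS2 -1.29 and -1.196. For PTGER4 the value with DDD86481 was -0.87, a call lost when any of 4 libraries was left out. Both interactions use the same DMSO libraries, so the inhibitors are not independent of each other here.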

How the results depend on the processing

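Counts of the 9 genes and of all genes that passed stayed within 1.5 times under all alternatives, except that fits of only the groups compared called 2677 genes in place of 4829 (IMP1088) and 2820 in place of 5242 (DDD86481) in control cells, and that without a filter on low counts 1 gene in place of 0 differed between the inhibitors in senescent cells. The directions that reversed were those of differences that had not passed. PTGES2 in control cells moved to -0.054 (IMP1088) and -0.060 (DDD86481) under upper quartile scaling and to -0.0023 (IMP1088) without a filter. PTGER2 with IMP1088 in senescent cells moved to 0.0056 in a fit of only the groups compared. When single libraries were left out, PTGES2 in control cells ranged from -0.11 to 0.16 (IMP1088) and from -0.11 to 0.17 (DDD86481), PTGER4 in control cells from -0.19 to 0.046 (IMP1088) and from -0.19 to 0.079 (DDD86481), PTGER2 with IMP1088 in senescent cells from -0.19 to 0.060, and the interaction of PTGER2 with DDD86481 from -0.086 to 0.18. With the replicate block, PTGER2 with DDD86481 in senescent cells passed (-0.35, adjusted p = 0.0418, in place of 0.0598). The numbers were not taken to pair any libraries in the main fit, and the block changed no other call among the 9 genes. PTGES3 in senescence also passed under RLE scaling (0.22, adjusted p = 0.0306). The interaction of PTGER4 with IMP1088 also passed without a filter (adjusted p = 0.0252) and in a fit of only the groups compared (0.0328). The causes were not tested. Depth limits HPGD in all cells and PTGIS in senescent cells, which were at or under 3 counts.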
